A study of Mus musculus with 77 samples.

Results

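The 7 genes described here, Isg15, Oasl2, Ifit1, Ifit3, Irf7, Bst2 and Usp18, are interferon-stimulated genes and were chosen by symbol from the 21154 genes with a symbol on the array, where they are read by 8 of 55681 probes. The values come from the retinas of 77 C57BL/6 mice with oxygen-induced retinopathy (OIR) or without it. In this model, pups breathe 75% oxygen from postnatal day 7 (P7) to P12, which stops the growth of retinal vessels, and the return to room air is followed by new vessel growth around P17 and its regression by P28. OIR mice (hyperoxia, 75% oxygen) and control mice (normoxia, 21% oxygen) were of the same strain and were taken on P12 (13 OIR, 12 control), P17 (13 OIR, 12 control) and P28 (13 OIR, 14 control). Both retinas of a mouse were pooled. Oxygen was assigned by litter, and since no label ties a mouse to its litter, the effects of oxygen and litter cannot be told apart. No mutant or drug was part of these groups.

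Interferons are secreted when cells sense foreign or misplaced nucleic acid. Type I interferons bind the receptor made of Ifnar1 and Ifnar2, and the kinases Jak1 and Tyk2 then pass the signal to transcription factors, among them Irf9, which bind a DNA element in the promoters of target genes. In the retina, microglia are a main source of innate immune signals, but other retinal cells respond to interferon as well.

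Isg15 encodes a ubiquitin-like protein that is joined to other proteins, and Usp18 removes it again and also damps signaling from the receptor. Oasl2 belongs to the oligoadenylate synthetase family. Ifit1 and Ifit3 are antiviral proteins of which Ifit1 binds foreign RNA. Bst2 (tetherin) holds budding viruses at the cell surface. Irf7 is the transcription factor that amplifies type I interferon production. The Ifit3 probe may also take up the transcript of the near-identical Ifit3b, so its values are uncertain as to the gene.

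The letters of that DNA element were searched before the start site of each gene, and the stretches around them are given as the sequence context of the results. They come from the RefSeq promoter table (GRCm38.p6), which had an entry for 6 of the 7 genes and none for Usp18. The letters GAAANNGAAA, or TTTCNNTTTC on the other strand, were searched in the 250 bases before the start, overlapping matches included, and matches are in capitals. The start is that of the promoter table, and for Ifit3, Irf7 and Oasl2 it lies inside the span that RefSeq gives for the gene, so that all of the Ifit3 stretch, most of the Irf7 stretch and the last bases of the Oasl2 stretch lie within that span and not before it.
Isg15 (chr4:156200850-156200921, minus strand): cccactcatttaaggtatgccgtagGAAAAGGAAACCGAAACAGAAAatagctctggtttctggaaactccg
Ifit1 (chr19:34640760-34640838, plus strand): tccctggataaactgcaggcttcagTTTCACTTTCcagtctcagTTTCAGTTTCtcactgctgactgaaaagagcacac
Ifit3 (chr19:34583348-34583441, plus strand): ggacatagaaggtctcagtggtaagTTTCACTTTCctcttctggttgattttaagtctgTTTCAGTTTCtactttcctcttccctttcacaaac
Bst2 (chr8:71537562-71537627, minus strand): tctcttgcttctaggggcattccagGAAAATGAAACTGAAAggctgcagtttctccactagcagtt
Oasl2 (chr5:114896854-114896933, plus strand): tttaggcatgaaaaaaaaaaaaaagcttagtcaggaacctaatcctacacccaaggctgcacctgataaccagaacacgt
Irf7 (chr7:141266425-141266504, minus strand): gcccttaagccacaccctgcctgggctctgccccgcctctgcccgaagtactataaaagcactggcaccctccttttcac

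Of the 6 genes, 4 held a match, and 978 of 32851 windows of all genes did (2.98%). Isg15 held 3 overlapping matches, the nearest 56 bases before the start. Ifit1 held 2 at 75 and 94 bases, Ifit3 2, the farther one with its far end 156 bases away, and Bst2 2 overlapping ones at 114 and 120 bases. For Oasl2 and Irf7, the 80 bases next to the start are shown, as these letters were not in their window. The same letters were found in 13 of 38 windows of other type I interferon targets and 9 of 14 windows of interferon gamma targets.

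Each array carried retina RNA and a common mouse reference RNA in different dyes, and all levels are log2 ratios of retina to reference. The labels give the retina as Cy5, but all 9 rod genes were above 0 on every array only with Cy3 as the retina, with a lowest value of 1.04, so every sign in the text is opposite to the labels' dyes. The ratio is given in 2 forms. The offset ratio was computed from the scanner signals with an offset of 50 added to both dyes, which draws dim probes toward 0, and is the main measure. The deposited ratio is the authors' processed value, which has no such offset and spreads dim probes more widely. A level below 0 means less than in the reference and allows no ranking between genes.

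The retina dye gave 13801 to 34328 detected probes (well above background) on an array. The group medians ran from 20074 to 21122 on P12 and P17 but were 32916 (OIR) and 32193 (control) on P28, so comparisons with P28 carry a difference in array brightness. Slides 4, 5 and 6 held 19 of 27 mice of P28 but 2 of 25 of P12 and 3 of 25 of P17, so day and slide are largely confounded and cannot be fully told apart. The arrays lay on 11 slides, and 3 arrays of slide 11 had 13801 to 16912 such probes and 8 of slide 9 had 25741 to 32951. Of the 7 genes, Isg15 was well above background on 77 of 77 arrays, Oasl2 on 74, Bst2 on 64, Ifit3 on 62, Usp18 on 33, Irf7 on 30 and Ifit1 on 24. The second, dimmer Isg15 probe was above background on no array of P12 or P17, so the brighter probe is used.

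**Figure D1:**
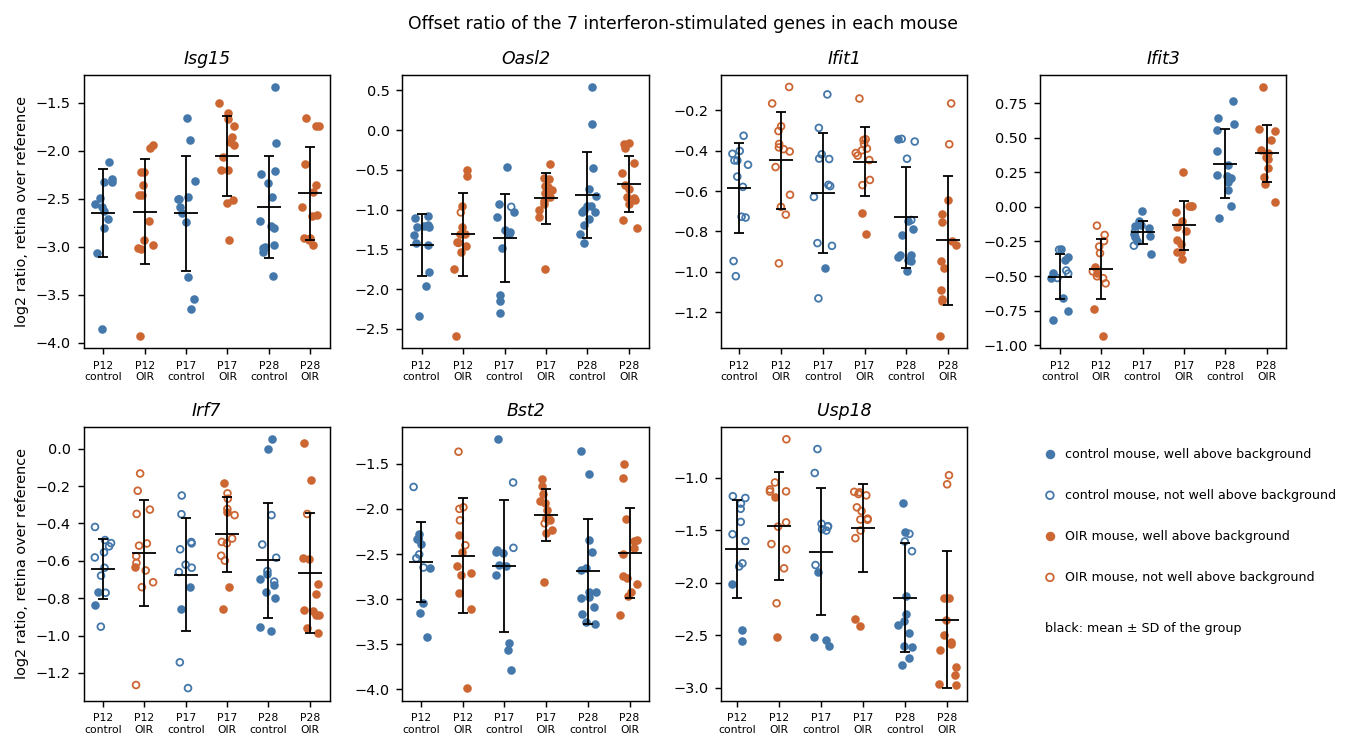
Offset ratio (log2, retina over reference) of the 7 interferon-stimulated genes in every mouse by day and group, with group means and SD; open points were not well above background. On P17 the OIR means lie above the control means for every gene, by 0.05 (Ifit3) to 0.60 (Isg15), and the groups overlap.

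On P17, the day of new vessel growth, the mean of OIR mice was above that of control mice for 7 of 7 genes, but none passed the test by the offset ratio, and 5 passed it by the deposited ratio. As in any bulk tissue, more cells of a type and more RNA per cell cannot be told apart. Isg15 by the offset ratio was -2.93 at the lowest, -1.94 at the median and -1.505 at the highest in OIR mice, and -3.65, -2.55 and -1.66 in control mice. Bst2 was -2.81, -2.11 and -1.67 in OIR mice and -3.78, -2.55 and -1.23 in control mice. Oasl2 was -1.74, -0.78 and -0.42 in OIR mice and -2.30, -1.27 and -0.47 in control mice. In each of these 3 genes the groups overlapped, and 3 control mice lay below the lowest OIR mouse. The differences were 0.60 (SE 0.20) for Isg15, 0.56 (SE 0.21) for Bst2 and 0.51 (SE 0.17) for Oasl2, with adjusted p-values of 0.202, 0.298 and 0.226 (limma, Benjamini-Hochberg over all probes). The other 4 genes differed by 0.22 (Irf7), 0.22 (Usp18), 0.16 (Ifit1) and 0.05 (Ifit3), with adjusted p-values from 0.438 to 0.757. At an unadjusted p under 0.05 there were 4 genes, Isg15, Oasl2, Bst2 and Irf7, against 5772 of 55681 probes of the whole array. The adjusted threshold was passed by 1.13% of all probes.

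In the deposited ratio, Bst2 ran from -4.50 over a median of -3.53 to -2.64 in OIR mice and from -5.10 over -4.61 to -3.32 in control mice on P17. Oasl2 ran from -2.71 over -1.58 to -1.08 in OIR mice and from -3.63 over -2.65 to -1.66 in control mice. Isg15 ran from -3.81 over -2.72 to -2.38 in OIR mice and from -4.45 over -3.83 to -2.92 in control mice. All 13 OIR mice lay above the control median for Isg15 and Bst2 and 12 of 13 for Oasl2, while 7, 4 and 7 OIR mice lay above the highest control mouse. Irf7 ran from -3.15 over -2.48 to -1.17 in OIR mice and from -5.29 over -3.63 to -1.97 in control mice. Usp18 ran from -4.76 over -4.24 to -3.23 in OIR mice and from -6.14 over -4.58 to -4.16 in control mice. Both are dim on P17, where Irf7 was detected in 4 OIR mice and 2 control mice and Usp18 in 2 OIR mice and 4 control mice.

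The differences by the deposited ratio were 1.29 (SE 0.32, adjusted p = 0.0254) for Irf7, 1.03 (SE 0.21, adjusted p = 0.00408) for Bst2, 0.98 (SE 0.20, adjusted p = 0.00491) for Oasl2, 0.87 (SE 0.18, adjusted p = 0.00496) for Isg15 and 0.78 (SE 0.21, adjusted p = 0.0369) for Usp18, all by limma with Benjamini-Hochberg adjustment. On the linear scale this was 2.04-fold for Bst2, 1.98-fold for Oasl2 and 1.83-fold for Isg15. No fold is given for Irf7 and Usp18, whose signal was near background in most mice of both groups and whose offset ratios differed by 0.22 each. Ifit1, above background in 2 OIR and 1 control mouse, differed by 0.69 (SE 0.30, adjusted p = 0.327), and Ifit3 by 0.09 (SE 0.19, adjusted p = 0.895). Thus 5 of 7 genes were called higher, 3 of them detected in most mice, against 1.67% of all probes called higher by this ratio. With the signal of the retina dye alone, 3 genes passed, Bst2 (0.52), Oasl2 (0.53) and Isg15 (0.44), against 1.59% of all probes called higher. The reference dye alone differed by -0.06 to 0.02 between OIR and control mice over the 7 genes, and none passed the test or an unadjusted p under 0.05.

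**Figure D2:**
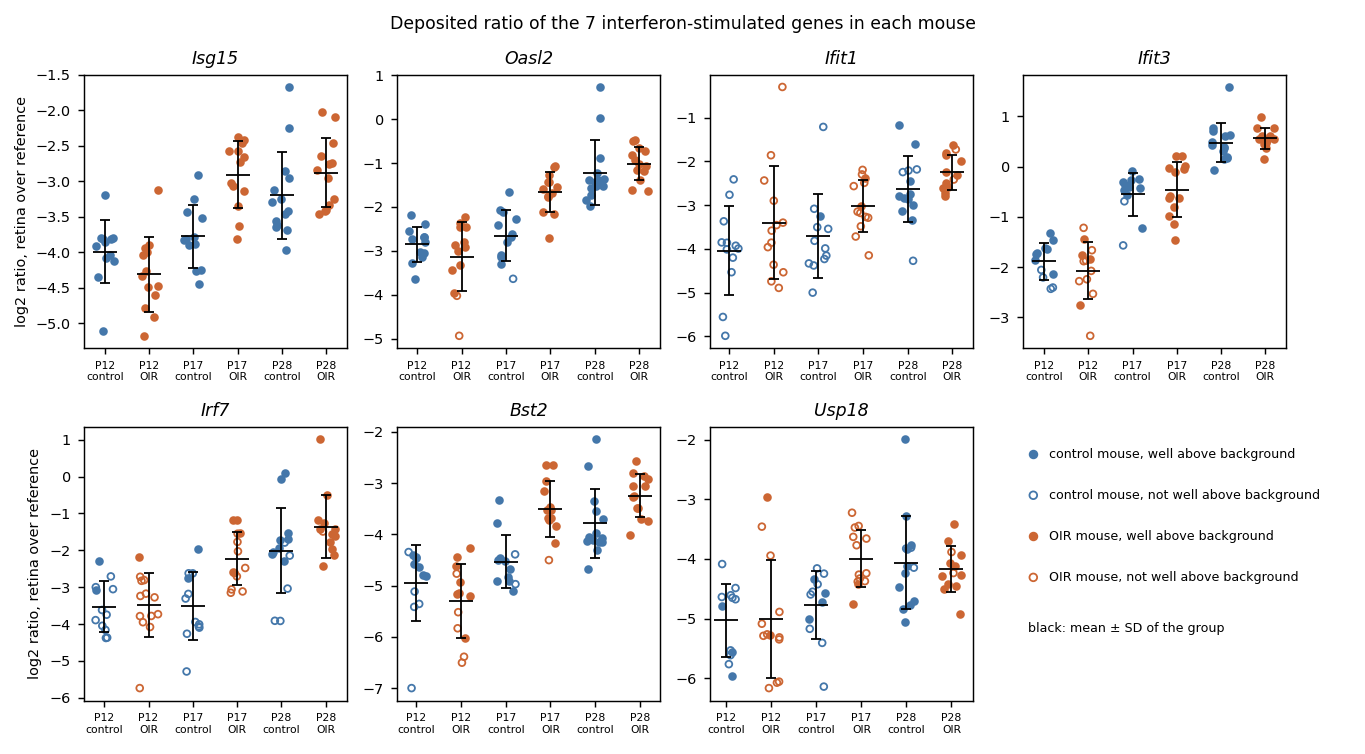
Deposited ratio (log2, retina over reference, the authors' processed values) of the same genes in every mouse by day and group, with group means and SD; open points were not well above background. On P17 all 13 OIR mice lie above the control median for Isg15, Irf7 and Bst2, while 6 of 13 do for Ifit3.

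The call depended on the form of the value for every gene but Ifit3. Over the forms and sample sets tried on P17, Oasl2 and Isg15 passed in 7 of 16, Bst2 in 6 of 16, Irf7 in 5 of 15, Usp18 in 3 of 15, Ifit1 in 1 of 15 and Ifit3 in 0 of 16. The direction was the same in all of them for 6 genes, and the exception was Ifit3, which ran from -0.04 to 0.11. With the slide as a block, the deposited ratio still gave 4 genes and Usp18 missed the threshold (adjusted p = 0.12). Without the 2 arrays of slide 8 and the 3 of slide 11, it gave 6 genes, with Ifit1 at 0.93 added.

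Slides 1, 2, 3, 7, 9 and 10 held both groups on P17, each with 2 OIR mice. Slides 7 and 9 held 2 control mice and the others 1, so most control means are the value of 1 mouse. Within these slides, the mean of OIR mice was above that of control mice on 6 of 6 slides for Oasl2 by either ratio. The deposited ratio had it on 6 of 6 for Ifit1, Irf7, Bst2 and Usp18 as well, on 5 of 6 for Isg15 and on 3 of 6 for Ifit3. The offset ratio had it on 5 of 6 for Isg15, Irf7, Bst2 and Usp18 and on 4 of 6 for Ifit1 and Ifit3. The difference for Oasl2 within a slide ran from 0.18 to 0.80 by the offset ratio and from 0.68 to 1.71 by the deposited ratio.

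**Figure D3:**
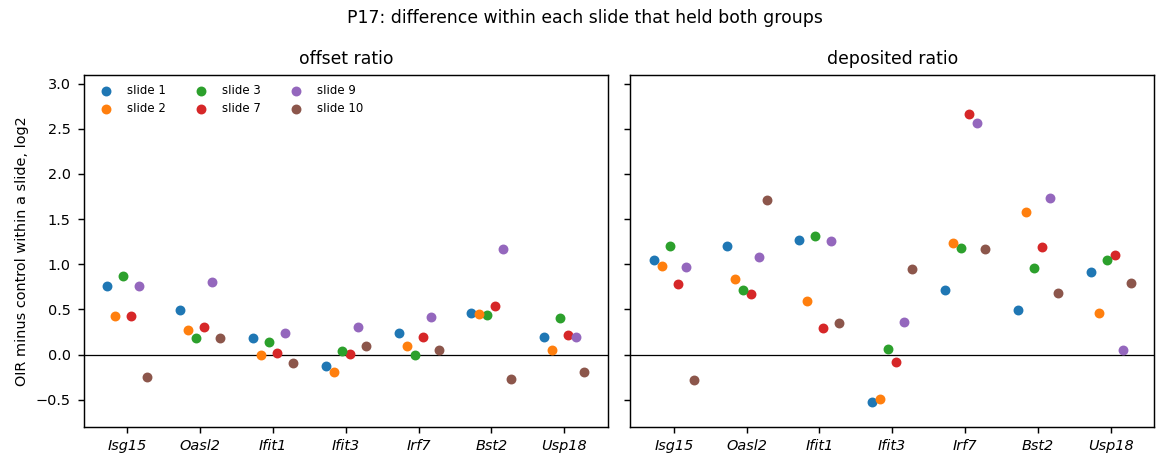
Difference between OIR and control mice (log2) on P17 within each slide that held both groups, by gene and by either ratio, with 1 point per slide. For Oasl2 all 6 slides lie above 0 by both ratios, whereas for Ifit3 they lie on both sides. Slides 1, 2, 3 and 10 held 1 control mouse of P17 each.

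On P12, the end of hyperoxia, no gene passed the test between OIR and control mice by either ratio (limma). The differences by the offset ratio were 0.01 (Isg15) to 0.22 (Usp18) with an adjusted p of 0.9997 for each gene and no unadjusted p under 0.05, and 0.0233% of all probes were called. Bst2 differed by the deposited ratio by -0.34 (SE 0.28), Isg15 by -0.32 (SE 0.19), Oasl2 by -0.28 (SE 0.25) and Ifit3 by -0.19 (SE 0.19). The 95% interval of the Bst2 difference reached from -0.90 to 0.21. Irf7 (0.04) and Usp18 (0.02) lay near 0, none had an unadjusted p under 0.05, and 0.07% of all probes were called. Ifit1 was well above background in no mouse of P12, so no fold is given. Isg15 by the deposited ratio was above the control median in 1 of 13 OIR mice on P12, against 13 of 13 on P17.

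On P28, 0 of 7 genes were called by either ratio. The mice of P28 were unevenly spread over slides, with 0 OIR and 1, 3 and 1 control mice on slides 1, 2 and 3. Slides 4, 5 and 6 held both groups, with 3, 3 and 5 OIR and 2, 3 and 3 control mice. Within these slides, the OIR mean was higher on 3 of 3 by both ratios for Isg15, Oasl2, Bst2 and Ifit3. For Ifit1, Irf7 and Usp18 it was higher on 2, 1 and 0 by the offset and on 3, 1 and 3 by the deposited ratio. In the limma test of the offset ratio, no unadjusted p was under 0.05, the differences ran from -0.21 (Usp18) to 0.21 (Bst2), and 0.0611% of all probes were called. In the deposited ratio, 6 of 7 means were higher in OIR mice, and Bst2 had the smallest unadjusted p, at a difference of 0.54 (SE 0.21, adjusted p = 0.608), with 0.203% of all probes called. Bst2 ran from -4.02 over a median of -3.24 to -2.56 in OIR mice and from -4.68 over -4.06 to -2.15 in control mice. Thus 13 of 13 OIR mice were above the control median of Bst2, but none was above the highest control mouse. Irf7 differed by 0.64 (SE 0.38), Ifit1 by 0.39 (SE 0.23), Isg15 by 0.32 (SE 0.21) and Oasl2 by 0.21 (SE 0.22). Usp18 differed by -0.11 (SE 0.23) and Ifit3 by 0.09 (SE 0.12), with adjusted p-values of the 7 genes from 0.608 to 0.908.

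The highest control mouse of P28 was the same animal, number 65, for 6 of 7 genes by the deposited ratio and for 5 of 7 by the offset ratio. Its levels by the deposited ratio were 0.73 for Oasl2, -1.67 for Isg15, -2.15 for Bst2, -1.99 for Usp18, -1.18 for Ifit1 and 1.58 for Ifit3. The same held for other mice, as P17 control mouse 76 was highest for 6 of 7 genes by the offset and 3 by the deposited ratio, and P12 OIR mouse 31, P28 OIR mouse 18 (offset) and P28 OIR mouse 49 (deposited) were each highest for 5. Mouse 76 lay on slide 11 and had the dimmest array, with 13801 detected probes. Mouse 65 lay on slide 2 and had 20742 detected probes, against a median of 32193 in its group. For mouse 65, the median difference from the other mice of its group over the 7 genes was 1.76 by the deposited and 1.13 by the offset ratio. The part of slide and array brightness in this difference was not tested. Mouse 65 was the highest of 14 mice for 16 of 45 other type I interferon targets (35.6%) and for 6.44% of all probes by the deposited ratio. The rod markers of this mouse also differed from those of the others, by a median of 2.07, while it was highest for 1 of 16 microglia and macrophage markers. Without this mouse, 0 of 7 genes were called on P28 as well.

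The OIR effect itself was compared between days in one limma model with Benjamini-Hochberg adjustment. From P12 to P17 it rose for Bst2 by 1.37 (SE 0.34, adjusted p = 0.0151), for Oasl2 by 1.27 (SE 0.33, adjusted p = 0.0205) and for Isg15 by 1.19 (SE 0.28, adjusted p = 0.00822) by the deposited ratio, where 1.2% of all probes were called in this direction. These changes were by the offset ratio 0.49, 0.38 and 0.59 and none of 7 genes passed, with Isg15 at an unadjusted p of 0.0429 and 0.48% of all probes called. Irf7 by the deposited ratio changed by 1.24 (SE 0.50, adjusted p = 0.352) and Usp18 by 0.76 (SE 0.38, adjusted p = 0.562). From P17 to P28 none passed by either ratio, with 0.278% of all probes called by the offset and 0.584% by the deposited ratio. By the offset ratio the changes ran from -0.46 (Isg15) to 0.02 (Ifit3), with no unadjusted p under 0.05. By the deposited ratio they ran from -0.89 (Usp18) to -0.004 (Ifit3). There, 2 genes, Usp18 and Oasl2, had an unadjusted p under 0.05, against 5912 of 55681 probes. From P12 to P28 none passed either, with 0.0395% and 0.176% of all probes called. Unadjusted p-values under 0.05 were then found for 0 genes by the offset and 2 by the deposited ratio, Bst2 (0.89, SE 0.34) and Isg15 (0.64, SE 0.28). By the deposited ratio 3661 of 55681 probes had such a p.

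**Figure D4:**
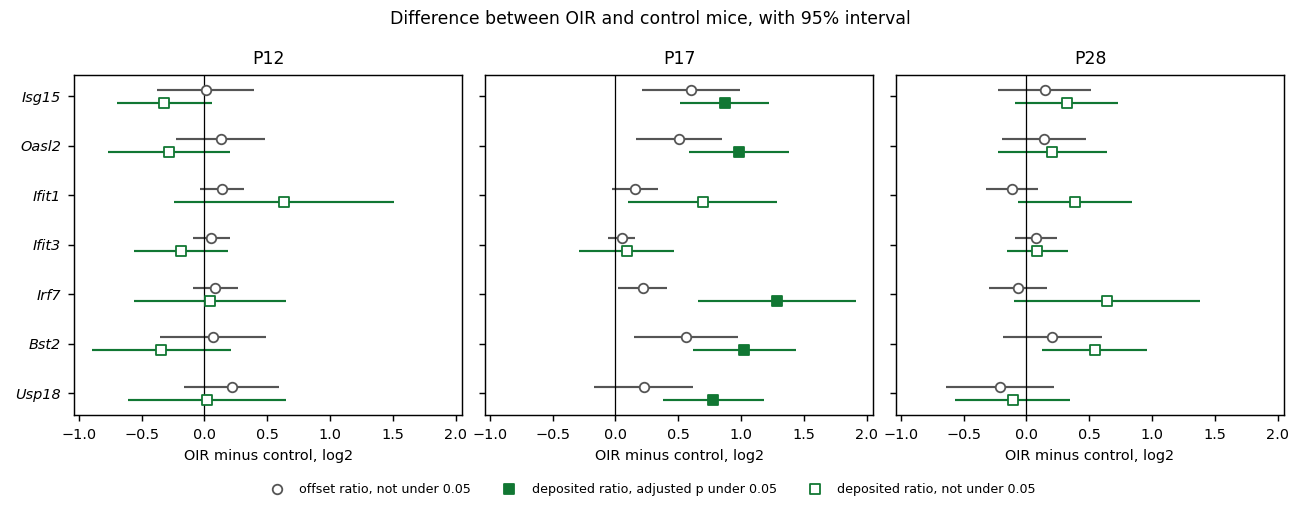
Difference between OIR and control mice (log2) on P12, P17 and P28 for each gene by either ratio, with 95% confidence intervals and filled points where the adjusted p was under 0.05. By the deposited ratio the P17 differences of Irf7, Bst2, Oasl2, Isg15 and Usp18 are 0.78 to 1.29, and those of the same genes on P12 are -0.34 to 0.04.

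Across days, Ifit3 rose in both groups. Its offset ratio ran from -0.82 over a median of -0.48 to -0.31 on P12, from -0.34 over -0.18 to -0.03 on P17 and from -0.08 over 0.22 to 0.77 on P28 in control mice. In OIR mice it ran from -0.93 over -0.47 to -0.14, from -0.38 over -0.15 to 0.25 and from 0.03 over 0.38 to 0.87. From P12 to P17, Ifit3 rose by 0.32 (SE 0.08, adjusted p = 0.0138, limma) in control mice and by 0.31 (SE 0.08, adjusted p = 0.00405) in OIR mice, and from P17 to P28 by 0.50 (SE 0.08, adjusted p = 2.28e-06) and 0.52 (SE 0.08, adjusted p = 8.71e-08). With median centering in place of loess, the rise from P12 to P17 was not called. The rises of Ifit3 by the deposited ratio were 1.33 and 1.61 to P17 and 1.03 and 1.02 to P28. On P12 Ifit3 was detected in 8 of 12 control mice and 4 of 13 OIR mice, so the size of its rise to P17 is uncertain. Between P12 and P17, 1 of 7 genes, Ifit3, was called in control mice, against 1.28% of all probes by the offset ratio and, among higher calls by the deposited ratio, 1.27%.

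In OIR mice, 6 of 7 genes rose from P12 to P17 by the deposited ratio, all but Ifit1, against 4.01% of all probes called higher. Bst2 rose by 1.79 (SE 0.24), Ifit3 by 1.61 (SE 0.17), Oasl2 by 1.47 (SE 0.23), Isg15 by 1.41 (SE 0.20), Irf7 by 1.26 (SE 0.34) and Usp18 by 1.01 (SE 0.26). By the offset ratio, Ifit3 was called and the others were not, against 3.43% of all probes, with differences of 0.58 (Isg15), 0.46 (Oasl2) and 0.45 (Bst2) at unadjusted p-values of 0.00449, 0.0123 and 0.0378, and of 0.10 (Irf7) and -0.02 (Usp18). Usp18 was detected in 2 of 13 OIR mice on either day and Irf7 in 1 on P12 and 4 on P17. Ifit1, above background in 2 of 13 OIR mice on P17 and in none on P12, was not called, and no size is given for it.

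Between P17 and P28 the form of the ratio set the direction of several genes, and the arrays of P28 were also the brighter ones. In control mice, Ifit3 and Oasl2 (0.54, SE 0.18, adjusted p = 0.0312) rose by the offset ratio, against 13.4% of all probes called, and Oasl2 was 0.44 (adjusted p = 0.0676) without mouse 65. All 7 genes rose in control mice by the deposited ratio, by 0.58 (Isg15) to 1.503 (Irf7), against 11.7% of all probes called higher, whereas by the offset ratio Usp18 (-0.44, unadjusted p = 0.0384), Ifit1 (-0.12) and Bst2 (-0.06) were lower on P28, so no direction is given for these genes in control mice. In OIR mice, Ifit3 rose by the offset ratio while Ifit1 fell by 0.39 (adjusted p = 0.000881) and Usp18 fell by 0.87 (adjusted p = 0.000395), against 40.6% of all probes called. Ifit1 was 0.77 higher by the deposited ratio (adjusted p = 0.0579) and Usp18 differed by -0.17 (adjusted p = 0.613), so no direction is given for these genes. The genes called by the deposited ratio were Ifit3 (1.02), Irf7 (0.86, adjusted p = 0.0353) and Oasl2 (0.65, adjusted p = 0.0156), against 25% of all probes called higher. Irf7 differed by -0.21 by the offset ratio and was not called there. It was detected in 4 of 13 OIR mice on P17 and in 12 on P28, so no direction is given for Irf7 in OIR mice either.

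By the offset ratio, most of the 7 genes varied together across mice once the mean of each day and group was removed. In the offset ratio, 18 of 21 pairs passed a permutation test of Pearson's r over 77 mice (100000 resamples, two-sided, Benjamini-Hochberg over 21 pairs), and 17 passed by Spearman's rho. Without Ifit3, r ran from 0.62 to 0.93 with a median of 0.84, the highest between Bst2 and Oasl2. For pairs with Ifit3, r ran from 0.11 to 0.38. Without the 2 mice farthest from the median, 15 pairs passed. These deviations also moved with array brightness, as the correlation with the number of detected probes was -0.88 for Usp18, -0.83 for Ifit1, -0.76 for Isg15 and Bst2, -0.74 for Oasl2, -0.56 for Irf7 and 0.10 for Ifit3. With the number of detected probes removed, 21 pairs passed, with r from 0.31 to 0.84. The permutations were made within day and group but not within slides. With the slide as a block, 17 pairs passed by the offset ratio, with a median r of 0.52. In the deposited ratio, 12 of 21 pairs passed, with r from -0.06 to 0.56 and a median of 0.275, and 6 passed without mouse 65. With the retina dye alone, the median r was 0.266. Pairs of other genes were not tested, so these values have no baseline. Within days, 21 pairs passed on P12, 15 on P17, where pairs with Ifit3 had an r from -0.33 to -0.05, and 13 on P28. The part of array brightness in these correlations was tested only by the fits given here.

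**Figure D5:**
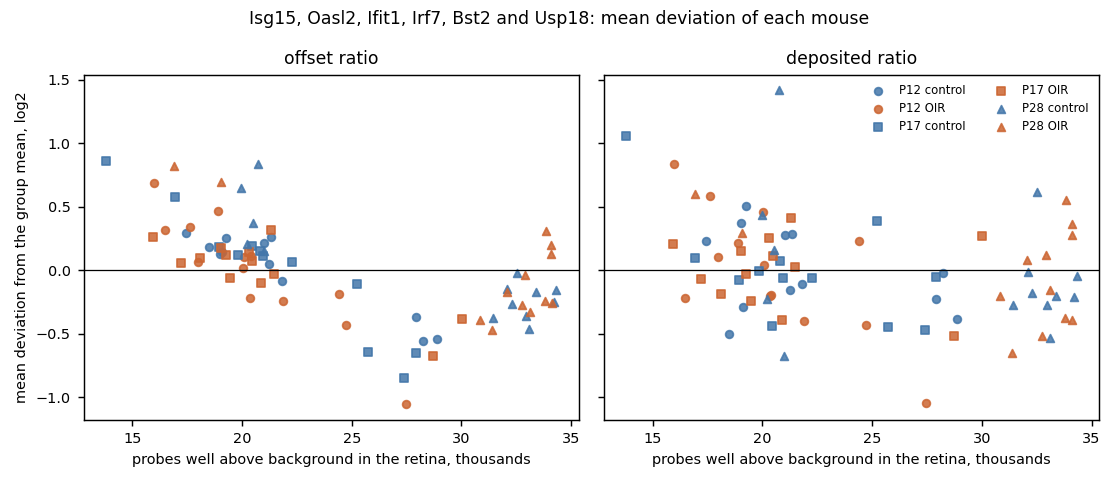
Mean deviation of Isg15, Oasl2, Ifit1, Irf7, Bst2 and Usp18 from their day and group means (log2) in each mouse against the number of probes well above background on its array, by either ratio, with color for the group and shape for the day. The 3 mice of slide 11, among those farthest to the left, with 13801 to 16912 detected probes, have a mean deviation of 0.79 by the offset and 0.83 by the deposited ratio, and the 8 mice of slide 9 have one of -0.63 and -0.36.

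The genes most like the members were found by Pearson's r between each gene's deviations and the mean of the 7 genes' standardized deviations over 77 mice, as a description. By the offset ratio these were, of 11810 candidates, Xaf1 (0.95), Rtp4 (0.94), Parp14 (0.94), Lgals3bp (0.93), Irgm1 (0.93), Psmb8 (0.93), Tspo (0.92), Tpm2 (0.92), Ccnd2 (0.92) and Ifi27l2a (0.92). Of these, 6 are on the interferon lists, as are 60 of the 11810 candidates. By the deposited ratio, of 11906 candidates, they were Lgals3bp (0.77), Ifi27 (0.74), Emp3 (0.58), B2m (0.58), Il17rc (0.57), Parp14 (0.56), Serpinf1 (0.55), Plin3 (0.55), Xaf1 (0.55) and Nagpa (0.55). Of these, 4 are on those lists, as are 60 of the 11906 candidates. All named genes were low against the reference, with a highest mean ratio of -0.82 by the offset and -0.69 by the deposited ratio. Lgals3bp, Parp14 and Xaf1 were named by both. All points share the array's brightness noted above.

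The rest of the pathway on P17 was taken from lists of ligands, receptors, transducers, sensors, ISG15 enzymes and targets. No ligand of 9 and no receptor of 6 was called by either ratio, and 4 of 9 ligand means were higher in OIR mice by the offset ratio. Ifnb1, Ifna4 and Ifne were well above background on no array, Ifng and Ifna2 on 1 of 77 and Ifnl3 on 63. On P17, Ifnl3 was detected in 8 OIR and 10 control mice and every other ligand in 0 mice. For those ligands, the lack of calls and the direction of the means therefore tell nothing of their level. Against 0.803% and 1.67% of all probes, 3 of 12 transducers were called higher by the offset and 4 by the deposited ratio. These were Socs3, an inhibitor of cytokine signaling, at 0.86 (SE 0.14, adjusted p = 0.00103) and 1.19, Irf8, a myeloid transcription factor, at 0.41 and 1.26, Irf9, a DNA-binding factor of the type I response, at 0.34 and 0.55, and, by the deposited ratio, Irf1 at 0.84.

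Among 16 sensors and adaptors, Myd88 (0.22) was called higher by the offset ratio, and Sting1, the adaptor of cytosolic DNA sensing (1.45, SE 0.15, adjusted p = 2.76e-07), and Ticam1 (0.85) by the deposited ratio. Of the 4 enzymes of ISG15 conjugation, Trim25 was called by both ratios (0.32 and 0.38), and Uba7, the activating enzyme, by the deposited ratio (0.73, adjusted p = 0.00886). Of 45 other type I interferon targets, 1 was called higher by the offset ratio, Ifi27 (0.64), and 6 by the deposited ratio, among them Ifitm1 (1.84), Ifi204 (0.87), Ifitm3 (0.83) and Lgals3bp (0.80). Of 21 interferon gamma targets, 0 were called by the offset ratio and 2 by the deposited ratio, the immunoproteasome subunits Psmb9 (1.12) and Psmb8 (0.94). On P17 Ifitm1 was detected in 8 of 13 OIR mice and 2 of 12 control mice. Ifi204 and Psmb9 were detected in 7 and 4 and Psmb8 in 7 and 5, so the sizes of these 4 genes are uncertain. Over all probes, 0.803% were called higher by the offset and 1.67% by the deposited ratio, so that 1 of 45 by the offset ratio is near the share of all probes. None of the genes on these lists was called lower on P17 by either ratio. The median difference by the deposited ratio was 0.33 for the other type I targets and 0.35 for the interferon gamma targets, against -0.004 for all probes. These medians include genes near background. Oas1g, Epsti1, Slfn5, Gbp9, Tgtp1 and Ido1 were detected in 0 mice of P17 and Gbp7 in 1 OIR mouse. The deposited ratio spreads such dim probes widely, so the size of both medians is uncertain.

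Markers of microglia and macrophages and of astrocytes and reactive glia were also higher in OIR mice on P17. The share of all probes called higher was 0.803% by the offset and 1.67% by the deposited ratio. Of 16 microglia and macrophage markers, 3 were called higher by the offset and 8 by the deposited ratio, among them Aif1 (1.41), Tyrobp (1.31), Fcer1g (1.09), C1qc (1.08) and Cx3cr1 (0.90). Their mean level by the deposited ratio ran from -0.48 to 0.38 in OIR mice (median -0.15) and from -0.92 to -0.51 in control mice (median -0.74) and did not overlap on P17, but by the offset ratio it ran from -0.55 to -0.22 and from -0.96 to -0.32, which overlap. On P28 the mean level ran from -0.73 to -0.06 in OIR mice and from -0.92 to -0.46 in control mice, and on P12 from -0.73 to -0.03 and from -0.66 to 0.08. Of the 16, Ccr2 was well above background on 0 of 25 arrays of P17 and Mrc1 in 1 OIR mouse. P2ry12 was detected in 2 OIR mice and 1 control mouse of P17 and Tmem119 in 5 of each group. Aif1 was detected in 12 of 13 OIR mice and 5 of 12 control mice, so the size of its difference is uncertain. Of 8 astrocyte and reactive glia markers, 5 and 6 were called higher on P17. Their mean level by the deposited ratio ran from 0.75 to 1.86 in OIR mice (median 1.58) and from -0.81 to 0.15 in control mice (median -0.44). This list holds Gfap and Edn2, which the paper lists among its most raised retinal genes of P17. Its calls and its mean level are therefore not independent of these data. Called higher were also 2 of 11 endothelial markers by either ratio, while 0 of 9 T and NK cell markers were called. Of these 9, Cd3d, Cd3g, Cd2 and Klrb1c were detected in 0 mice of P17. Gzma was detected in 1 OIR mouse, Cd8a in 2 OIR and 4 control mice, and Cd3e, Cd4 and Nkg7 in all. The lack of calls therefore does not show whether T and NK cells changed. The part of these cell types in the differences of the interferon-stimulated genes was not tested.

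By the offset ratio (limma), 0 genes of these lists were called on P28 or for any change of the OIR effect between days. On P28, 7 list genes had an unadjusted p under 0.05, against 4144 of 55681 probes. Changes from P12 to P17, P17 to P28 and P12 to P28 had 9, 21 and 1 such genes, against 2706, 7804 and 3448 probes. Whether the lists held a larger share of such genes than the array was not tested. The values that follow are calls of the deposited ratio alone unless the offset ratio is named. On P28, Ifitm1, which blocks viral entry, was higher in OIR mice by 1.201 (SE 0.23, adjusted p = 0.0122) and Oas2, an oligoadenylate synthetase, by 0.66 (SE 0.14, adjusted p = 0.0449), with each detected in 9 of 14 control mice. The OIR effect rose from P12 to P17 for Sting1 by 1.80 and Uba7 by 1.34 and was called higher also for Ifitm1 and Psmb9, and from P17 to P28 it fell by 1.16 for Sting1 (SE 0.23, adjusted p = 0.0016). From P12 to P28 it was called higher for Psmb9 (adjusted p = 0.00326). In OIR mice from P12 to P17, Ifitm1, Rtp4, Gbp3 and Psmb9 were called higher, but on P12 they were detected in 1, 1, 1 and 2 of 13 mice, so no size is given, while by the offset ratio the genes of largest change were Ifi27 (0.82), Socs3 (0.68), Irf3 (0.56) and Irf9 (0.53). In control mice Irf9 (0.39), Ifit2 and Xaf1 were called higher by the deposited ratio. Ifit2 was detected in 2 and 3 and Xaf1 in 3 and 4 of 12 mice on P12 and P17. By the offset ratio 0 were called (limma), with 7 list genes at an unadjusted p under 0.05, against 4569 of 55681 probes.

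From P17 to P28, with the brighter arrays of P28, the interferon gamma receptor chain Ifngr1 fell by 0.40 (adjusted p = 1.3e-05, limma) in control mice and by 0.30 (adjusted p = 0.00017) in OIR mice by the offset ratio, and by 0.57 and 0.43 by the deposited ratio. Its partner Ifngr2 fell by 0.34 in control mice and by 0.43 in OIR mice by the offset ratio, and in the deposited ratio it was called in OIR mice, with -0.40. Ifnar2, a chain of the type I receptor, fell by 0.42 in OIR mice by the offset ratio but was 0.78 higher by the deposited ratio, so no direction is given. Il10rb and Ifnlr1 were called lower in OIR mice by the offset ratio, and Il10rb higher from P12 to P17 by the deposited ratio, with 4 and 1 of 13 OIR mice detected on P17 and no size given. The ligands Ifna5 and Ifnk in OIR mice and Ifna1 in control mice were called higher on P28, but on P17 they were detected in 0 mice of these groups, so no size is given.

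Among the other genes of the lists, Sting1 fell from P17 to P28 in OIR mice by 1.39 (SE 0.24) by the offset ratio and by 1.65 (SE 0.16) by the deposited ratio. Ms4a4c (-1.46), Sp110 (-1.43) and Ifi204 (-1.40) were also lower by the offset ratio in OIR mice, and Ms4a4c (-1.07), Ifi204 (-0.94), Oasl1 (-0.81) and Apol9a (-0.80) in control mice. By the deposited ratio the largest changes were other genes, in OIR mice Tbk1, Tyk2 and Irgm2, and in control mice the guanylate-binding proteins Gbp2 and Gbp7, with Irgm2 and Ifi35. On P17 Tbk1 was detected in 4 OIR mice, Tyk2 in 2 and Irgm2 in 3, and in control mice Gbp2 in 1, Gbp7 in 0, and Irgm2 and Ifi35 in 4 each, so no size is given for them.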

How the data were processed

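Retina RNA from 77 mice was hybridized against reference RNA on 2-color Agilent arrays. Per the file headers, the authors extracted median signals and local backgrounds as intensity values with Feature Extraction 10.7.3.1. The authors also gave log2 values of the processed Cy3 over Cy5 signal for each probe, equal to the scanner files' ratio within 0.001 in at least 99.02% of values of each array; the settings of normalization are not given in the sources used here. For the offset ratio, median signals were corrected by normexp (offset 50) and loess in limma 3.58.1 (R 4.3.3, data.table version 1.17.8), and outlier spots (0.592 to 0.951% per array) were left out. All 55681 probes were tested by limma within each day, with Benjamini-Hochberg adjustment and a threshold of 0.05, and changes and days in one model of 6 groups. A gene was read by its brightest probe. Genes were named by rule, namely the 7 members, per comparison the up to 4 genes of all lists with the largest change among those called, called ligands and receptors, and the 10 most alike genes by r. Other list genes and the markers named were chosen after their values were seen. The members and lists were chosen with earlier results of these data known. Alternatives were offset, background, centering, dim-probe filter, deposited ratio, retina dye alone, slide block, array weights and, chosen after seeing the data, combinations with the deposited ratio, leaving out slides 8 and 11, and leaving out mouse 65. Ifnl2, Oas1b, Mx1, Mx2, Ddx60 and Ly6g were not matched to a probe. On simulated data, 85% of 200 probes changed by 0.5 and 97.5% changed by 1 (log2) were recovered for P17 over 55681 probes. These probes were drawn at random, with independent noise and no shifts shared within a slide or array. The shares therefore do not tell how often a change of the 7 genes would be found. The number of arrays limits the precision.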

Additional observations from a re-analysis of the deposited data

How the results depend on the processing

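The number of interferon-stimulated genes called on P17, 0 of 7 by the offset ratio, was 4 with an offset of 0, 5 by the deposited ratio, 3 with the retina dye alone, 2 with array weights, and, by the deposited ratio, 4 with the slide as a block, 6 without slides 8 and 11 and 5 with array weights. The change of the OIR effect from P12 to P17, with 0 calls, gave 2 with an offset of 0, 3 by the deposited ratio, 2 with the retina dye alone, and by the deposited ratio 4 with the slide as a block, 3 without slides 8 and 11 and 4 with array weights. On P12 and P28, 0 genes were called under every alternative run. From P12 to P17, median centering gave 0 calls in control mice in place of 1. In OIR mice, in place of 1, it gave 0, no background subtraction 3, an offset of 0 5, the deposited ratio 6, the retina dye alone 5, the slide as a block 4, array weights 4, and the deposited ratio 6 with the slide as a block, 6 without slides 8 and 11 and 6 with array weights. From P17 to P28 in control mice, in place of 2, median centering gave 6, the deposited ratio 7, the retina dye alone 5, the deposited ratio with the slide as a block 7, without slides 8 and 11 6, with array weights 6 and without mouse 65 5, and leaving out mouse 65 alone 1. In OIR mice, in place of 3, an offset of 0 gave 1, median centering 6 and array weights 6. In that comparison Ifit1 turned to 0.24 with median centering, 0.77 by the deposited ratio, 0.21 with the retina dye alone, and 0.80, 0.72 and 0.80 by the deposited ratio with the slide as a block, without slides 8 and 11 and with array weights. Usp18 turned to 0.21 with median centering, 0.061 with the retina dye alone and 0.17 by the deposited ratio with the slide as a block. Of the 21 pairs of genes, in place of 18, the retina dye alone gave 10 correlated pairs and the deposited ratio, with 12 on its own, gave 8 with the slide as a block, 9 with the number of detected probes removed and 6 without mouse 65. The cause of these differences was not tested. The filter on dim probes leaves no P17 value for Ifit1, Irf7 and Usp18, which are near background there, so their size is the least certain. No paired analysis was possible because each mouse has a number of its own and no number is shared between groups.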
